A study of Mus musculus with 8 samples.

Results

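Neuropeptides are short signalling peptides that neurons cut from a larger precursor protein and release from dense-core vesicles. They act on G protein-coupled receptors and tune the effect of the faster transmitters. The genes described here encode the precursors of neuropeptide Y (Npy), somatostatin (Sst), cholecystokinin (Cck), vasoactive intestinal peptide (Vip), corticotropin-releasing hormone (Crh), cortistatin (Cort), substance P and neurokinin A (Tac1), the enkephalins (Penk), the dynorphins (Pdyn) and neurotensin (Nts). Seizures in rodents are known to alter the messenger RNA of several of them, above all Npy in the hippocampus, and the opioid precursors Penk and Pdyn respond in the granule cells of the dentate gyrus. The rows were taken by gene name, and 10 of 10 precursors were found among 17613 genes in the deposited table.

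Polyadenylated RNA from brains of C57BL/6 mice was sequenced in 4 libraries labelled Uhrf2 knockout (KO) and 4 labelled wild type (WT). Uhrf2 is a reader of modified cytosines in the nucleus, and the title of the series ties it to 5-methylcytosine and spontaneous seizures. The labels name no allele, age, sex, brain region or seizure state, and they do not say that each library is a separate animal, so the p-values measure the spread between these libraries, which may be technical.

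The KO libraries held 13550420 to 19065173 counts, against 11891350 to 19773921 in the WT libraries. Uhrf2 itself went against the label, with 86.4, 88.6, 88.4 and 91.8 CPM, the count relative to the TMM-scaled library size, in the libraries labelled KO, against 58.0, 47.7, 57.2 and 58.9 CPM in those labelled WT, and counts per gene do not separate a deleted part from the rest. Every direction below therefore rests on the labels alone. Both libraries numbered 1 stood apart from the other libraries on the second principal component, which held 19.8% of the variance, so calls are also given without them. The label of brain tissue was checked on 17 markers of neurons and glia, among them Snap25, Gfap and Mbp, whose summed level was 15897 to 16354 CPM in KO and 16061 to 16345 CPM in WT libraries. The sum hides shifts of single markers. Of the 17, 3 were higher and 3 lower in KO libraries at an unadjusted p under 0.05 in edgeR, against 12.6% of all tested genes in either direction. After adjustment 0 passed. Lowest in p were Aqp4 (log2 fold change -0.17), Slc17a7 (0.11) and Snap25 (0.09). The 4 Y-linked genes Ddx3y, Eif2s3y, Kdm5d and Uty were present in every library, at a sum of 177 to 184 CPM in KO and 179 to 222 CPM in WT libraries.

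Of the precursors, Pdyn and Npy rose in the KO libraries and 0 fell. Pdyn was 1.30-fold and Npy 1.22-fold higher, the enkephalin precursor Penk was 1.14-fold higher without passing the threshold, and the other 7 lay between 0.93-fold and 1.10-fold. The test was edgeR's quasi-likelihood test over 15902 genes, with Benjamini-Hochberg adjustment over all of them and a threshold of 0.05. At that threshold 1.43% of all tested genes changed and 1.14% rose. The log2 fold change was above 0 for 8 of the 10 precursors, with a median of 0.07 over the 10, against 48.0% positive and a median of -0.005 over all tested genes. The precursors were chosen with earlier results of these data known, so this contrast only describes them. By DESeq2 3 rose and 0 fell, and at an unadjusted p under 0.05 in edgeR, reached by 12.6% of all tested genes, 3 were higher and 0 lower. The KO and WT libraries did not overlap for Pdyn and Npy. They did not overlap for 7.67% of all tested genes, 4.28% with KO higher and 3.4% with KO lower.

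**Figure D1:**
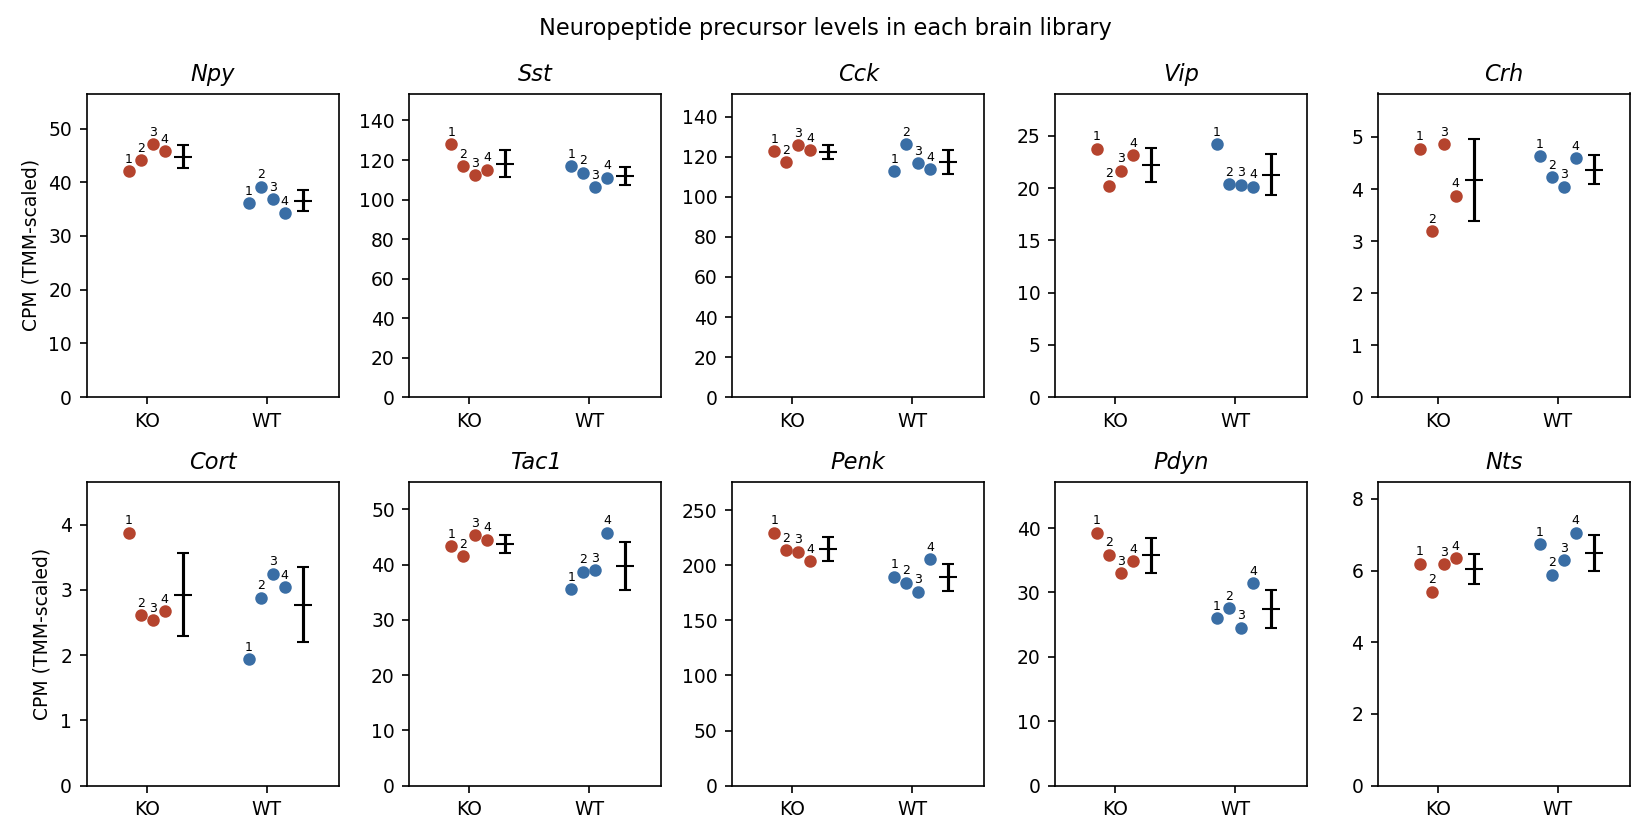
Level of each precursor, in CPM scaled by TMM factors, in the 4 KO (red, left) and 4 WT (blue, right) libraries, numbered by replicate. Bars give the mean ± SD (n = 4). The KO points lie above all WT points for Npy and Pdyn, and the groups overlap for the other 8.

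Pdyn, the precursor of dynorphin peptides that act mainly on the kappa opioid receptor, had 39.3, 35.9, 33.0 and 34.9 CPM in KO libraries 1 to 4, against 26.0, 27.6, 24.5 and 31.4 CPM in WT libraries 1 to 4. The lowest KO library, replicate 3, stood just above the highest WT library, replicate 4. Means were 35.8 ± 2.65 CPM in KO and 27.4 ± 2.96 CPM in WT libraries (SD, n = 4), a log2 fold change of 0.38 (SE 0.08, adjusted p = 0.0118, edgeR). Pdyn did not pass without WT replicate 3 (0.33, adjusted p = 0.0652) or without both libraries numbered 1 (0.32, adjusted p = 0.071). It lies on chromosome 2 from 129686565 to 129699844 on GRCm38, minus strand.

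Npy, a peptide of cortical and hippocampal interneurons that lowers glutamate release through its Y2 receptor, had 42.1, 44.1, 47.1 and 45.7 CPM in KO libraries 1 to 4, against 36.1, 39.2, 36.9 and 34.3 CPM in WT libraries 1 to 4. All KO libraries were above all WT libraries, with the narrowest gap between KO replicate 1 and WT replicate 2. Means were 44.7 ± 2.17 CPM in KO and 36.6 ± 2.03 CPM in WT libraries (SD, n = 4), a log2 fold change of 0.29 (SE 0.06, adjusted p = 0.0118, edgeR). Without both libraries numbered 1 it was 0.32 (adjusted p = 0.0157), and it did not pass without KO replicate 3 (0.27, adjusted p = 0.0665). Npy lies on chromosome 6 from 49822710 to 49829507 on GRCm38, plus strand.

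For Pdyn and Npy alike the exact two-sided permutation test on log2 CPM gave p = 0.0286, the smallest that the 70 ways to choose 4 of 8 libraries allow. It was computed for all 10 precursors and was not adjusted. In bulk tissue, more cells that make a peptide and more RNA per such cell cannot be told apart.

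Penk, the precursor of the enkephalins, which act on delta and mu opioid receptors, had 229.7, 214.0, 212.3 and 203.8 CPM in KO libraries 1 to 4, against 189.8, 184.4, 176.0 and 205.7 CPM in WT libraries 1 to 4. The groups overlapped through WT replicate 4, which stood above KO replicate 4. Its fitted difference was 0.19 on the log2 scale (SE 0.05, adjusted p = 0.0768, edgeR), and it passed without WT replicate 4 (0.23, adjusted p = 0.0275). DESeq2 also called it (adjusted p = 0.0425), and without both libraries numbered 1 it was 0.16 (adjusted p = 0.24, edgeR). Penk on chromosome 4, from 4133531 to 4138819, shares 233 exon bases with A830012C17Rik, a noncoding gene on the opposite strand that the deposited table places at the same locus. No source used here states whether counting used strand, so reads of the pair cannot be told apart. A830012C17Rik held 71 to 102 counts in KO and 47 to 82 in WT libraries, against 3052 to 4017 and 2257 to 3524 for Penk.

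Tac1, the precursor of the tachykinins substance P and neurokinin A, had 43.3, 41.5, 45.4 and 44.5 CPM in KO libraries, against 35.6, 38.7, 39.0 and 45.8 CPM in WT libraries 1 to 4. The highest value of all was that of WT replicate 4. Its log2 fold change was 0.13 (SE 0.07, adjusted p = 0.43, edgeR). Pdyn, Penk and Tac1 are all made by projection neurons of the striatum, and WT replicate 4 was the highest WT library for each of the 3.

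Sst, the inhibitory peptide of somatostatin interneurons, had 128.0, 116.9, 112.4 and 115.1 CPM in KO libraries, against 116.9, 113.7, 106.2 and 111.1 CPM in WT libraries 1 to 4. The groups overlapped, and KO replicate 1 was the only KO library above the WT range. The log2 fold change was 0.08, with a 95% interval of -0.02 to 0.18. Cort, a peptide related to somatostatin that binds the same receptors, was among the lowest precursors and had 3.88, 2.61, 2.54 and 2.67 CPM in KO libraries, against 1.93, 2.88, 3.25 and 3.04 CPM in WT libraries. Its direction turned with the libraries numbered 1: the log2 fold change was 0.03 with all 8 and -0.23 without them, and neither passed (adjusted p = 0.976 and 0.715, edgeR). With 23 to 65 counts per library, a difference of the size seen for Pdyn or Npy lay within the 95% interval of Cort, which ran from -0.36 to 0.42.

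Cck, a peptide of pyramidal cells and of a class of basket cells, had 122.7, 117.3, 125.7 and 123.3 CPM in KO libraries, against 112.9, 126.3, 116.7 and 113.8 CPM in WT libraries. The groups overlapped through WT replicate 2, and the 95% interval of the log2 fold change was -0.04 to 0.15. Vip, made by interneurons that mainly contact other interneurons, had 23.8, 20.3, 21.7 and 23.2 CPM in KO libraries, against 24.2, 20.4, 20.3 and 20.1 CPM in WT libraries. WT replicate 1 was the highest of all 8, and the interval was -0.09 to 0.23. For Cck and Vip the intervals did not reach the log2 fold change of Npy or of Pdyn.

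Crh, which starts the hormonal stress response in the hypothalamus and is also made by cortical and hippocampal interneurons, had 4.77, 3.19, 4.86 and 3.87 CPM in KO libraries, against 4.62, 4.23, 4.05 and 4.60 CPM in WT libraries. The KO values spread on both sides of the WT range, with a coefficient of variation of 19.1% in KO and 6.49% in WT libraries, where counting alone gives 12.2%. The log2 fold change was -0.06 (interval -0.36 to 0.25). Nts, a peptide that modulates dopamine signalling, had 6.19, 5.41, 6.18 and 6.34 CPM in KO libraries, against 6.73, 5.88, 6.29 and 7.06 CPM in WT libraries, a log2 fold change of -0.10 (interval -0.33 to 0.13). Both rest on few counts, 50 to 92 per library for Crh and 80 to 126 for Nts.

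Levels of different genes were compared per length of the longest protein-coding transcript. Sst (164 ± 9.52 CPM per kilobase in KO and 155 ± 6.24 in WT libraries, SD, n = 4), Cck (153 ± 4.48 in KO and 147 ± 7.70 in WT) and Penk (148 ± 7.44 in KO and 130 ± 8.64 in WT) stood highest, and the ranges of neighbours in that order overlapped in both groups. Npy followed at 79.1 ± 3.84 in KO and 64.6 ± 3.59 CPM per kilobase in WT libraries, and Tac1 at 35.5 ± 1.34 in KO and 32.3 ± 3.49 in WT, each apart from its neighbours. Pdyn (14.98 ± 1.11 in KO and 11.5 ± 1.24 in WT) and Vip (14.5 ± 1.04 in KO and 13.9 ± 1.29 in WT) came next. Vip reached 13.2 CPM per kilobase in its lowest WT library, the same as the highest WT library of Pdyn to 3 digits, and the pair overlapped in KO libraries. Nts, Cort and Crh were lowest, between 2.41 and 5.73 CPM per kilobase in every library. Over all annotated exon bases, Cck ranked below Penk, at 93.7 against 132 CPM per kilobase in KO libraries, Tac1 came to 12.8 beside Pdyn at 12.4, and Vip to 6.53.

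**Figure D2:**
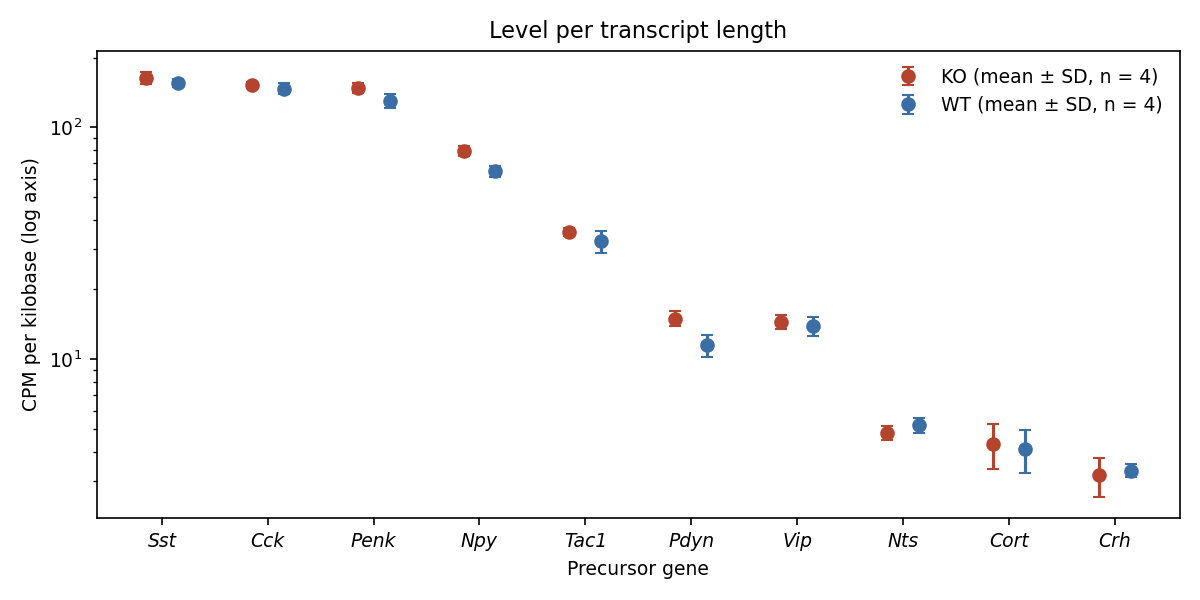
Level of each precursor in CPM per kilobase of its longest protein-coding transcript (log axis), mean ± SD of 4 KO (red) and 4 WT (blue) libraries. Sst, Cck and Penk are highest and Nts, Cort and Crh lowest, while the KO and WT error bars do not overlap for Npy, Pdyn and Penk.

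The precursor genes are spread over the genome. Npy and Tac1 share chromosome 6, Cort and Penk share chromosome 4, Vip and Nts share chromosome 10, and none is on chromosome 19 with Uhrf2. Promoter windows of 250 bases before to 50 after the transcription start were at hand in RefSeq (GRCm38.p6) for 8 of the 10 (not Penk or Crh), with 2 for Pdyn. They differed widely in CpG sites, a common but not the only place of 5-methylcytosine: 24 in Npy, 22 in Tac1, 13 in Sst, 11 and 5 in Pdyn, 10 in Cck and in Cort, 4 in Vip and 3 in Nts. Over 32851 windows the median was 7 and the quartiles were 3 and 20. Methylation itself was not measured in these libraries.

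The cAMP response element, TGACGTCA, was first described in the somatostatin gene and lies upstream of many activity-regulated genes. Among the windows of the precursors it was found in Sst alone, and in 1.79% of all windows. Its first 5 letters, TGACG on either strand, occurred in the windows of Sst, Cck, Vip, Cort, Tac1 and Nts and in 20.8% of all windows, and they did not occur in the windows of Pdyn or Npy, the precursors that rose. TGACTCA, the AP-1 motif (searched on both strands), occurred in Nts and in 5.20% of all windows, and GCGNGGGCG, the EGR motif, in 0 of the windows of these 8 precursors and in 5.55% of all windows. TGACGTCA reads the same on both strands and so holds TGACG on each. A match is a description of letters, and an absent match says nothing of a factor. The stretches that hold TGACG, or its reverse complement CGTCA, are shown 5′ to 3′ on the strand of the gene with those letters in capitals (the whole TGACGTCA in Sst), so that their distance from the RefSeq start site can be compared. Counted from the start site, the match begins at position -48 in Sst, -47 in Cck, -79 in Vip, -18 in Cort, -43 in Tac1 (with another at -197, not shown) and -166 in Nts.
Sst (chr16:23890875-23890904, minus): cgcctccttggcTGACGTCAgagagagagt
Cck (chr9:121495724-121495753, minus): cctgctggactgCGTCAgcactgggtaaac
Vip (chr10:5639127-5639156, plus): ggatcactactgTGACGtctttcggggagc
Cort (chr4:149126764-149126793, minus): ctccggcttgtgCGTCAccgcgtgagtgtg
Tac1 (chr6:7555006-7555035, plus): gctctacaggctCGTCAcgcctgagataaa
Nts (chr10:102490567-102490596, minus): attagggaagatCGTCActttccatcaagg

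The last 120 bases before the start site of the precursors that rose are shown for comparison. They hold none of the motifs searched, with 10 CpG sites in Npy and 3 in Pdyn.
Npy (chr6:49822590-49822709, plus): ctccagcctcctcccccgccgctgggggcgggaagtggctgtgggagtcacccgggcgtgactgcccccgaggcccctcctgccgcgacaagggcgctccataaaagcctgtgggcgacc
Pdyn (chr2:129699939-129700058, minus): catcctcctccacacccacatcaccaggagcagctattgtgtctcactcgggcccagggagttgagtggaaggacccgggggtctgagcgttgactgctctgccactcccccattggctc

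The order of the libraries within a group was compared over the 10 precursors, with no test. Among KO libraries, replicate 1 was highest for Sst, Vip, Cort, Penk and Pdyn but lowest for Npy, and replicate 2 was lowest for Cck, Vip, Crh, Tac1 and Nts. Among WT libraries, replicate 4 was highest for Tac1, Penk, Pdyn and Nts, and replicate 3 was lowest for Sst, Crh, Penk and Pdyn. Of 207 other genes in the lists used here, Wfs1, Vgf and Drd1a were closest to Pdyn over the 8 libraries, with mean absolute differences of centred log2 CPM of 0.06, 0.06 and 0.09. Closest to Npy were Ociad2, Rasd2 and Dlx6, at 0.06, 0.07 and 0.07. Centring over all 8 libraries keeps the difference between KO and WT. Genes that rose by a like amount therefore lie close to a precursor that rose, and Wfs1, Vgf, Drd1a and Ociad2 are among the genes that rose. The closeness is thus no separate result.

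**Figure D3:**
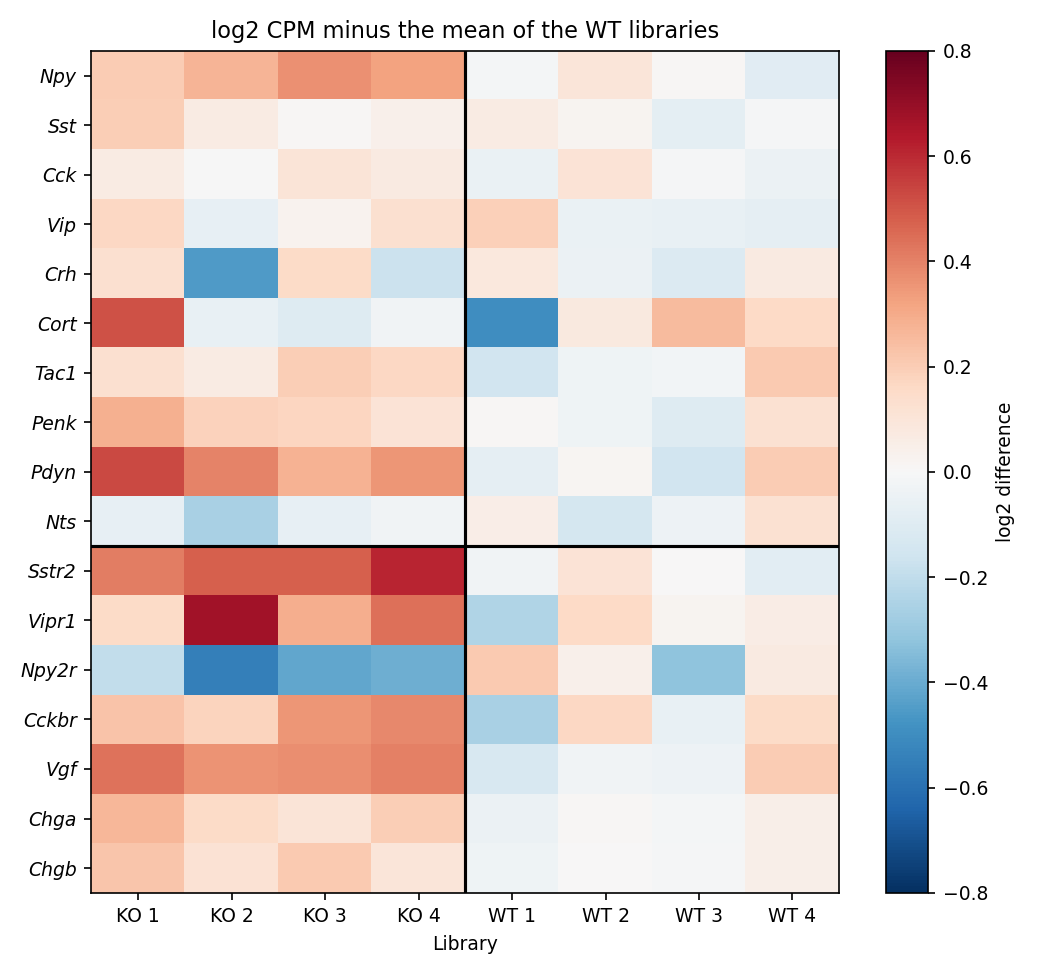
Difference of log2 CPM from the mean of the WT libraries for the 10 precursors (above the line) and for 7 receptor and vesicle genes (below it) in each KO and WT library. Red is higher and blue lower, and the scale ends at 0.8 either way. Npy, Pdyn, Sstr2 and Vgf are red in all 4 KO libraries. Penk, Tac1, Sst, Vipr1, Cckbr, Chga and Chgb are also above the WT mean in all 4, some only faintly. Npy2r and Nts are below it in all 4.

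Among the receptors, the somatostatin receptor Sstr2 rose. It had 15.5, 16.2, 16.2 and 17.8 CPM in KO libraries, against 11.4, 12.6, 11.7 and 11.01 CPM in WT libraries, with no overlap. Its mean was 16.4 ± 0.95 CPM in KO and 11.7 ± 0.66 CPM in WT libraries (SD, n = 4), a log2 fold change of 0.49 (SE 0.08, adjusted p = 0.00201, edgeR), while its ligand genes Sst and Cort did not pass. Sstr2 passed without any 1 library and without both libraries numbered 1 (0.51, adjusted p = 0.00584). Of 22 receptor and binding protein genes tested, 1 rose, 0 fell and 21 did not pass, with 13 positive log2 fold changes and a median of 0.08. Of the 22, 8 had an unadjusted p under 0.05, against 12.6% of all tested genes.

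The other 7 with an unadjusted p under 0.05 were named by that rule. Vipr1, a VIP receptor, had 24.5, 35.1, 27.0 and 29.9 CPM in KO libraries, against 18.7, 24.6, 22.4 and 23.0 CPM in WT libraries. Its log2 fold change of 0.39 (SE 0.11) did not pass (adjusted p = 0.113, edgeR), but did without KO replicate 1 (adjusted p = 0.0282), without both libraries numbered 1 (0.0342) and by DESeq2 (0.0247). Npy2r, the presynaptic Y2 receptor of neuropeptide Y, had 10.1, 7.90, 8.67 and 8.81 CPM in KO libraries, against 13.4, 11.9, 9.24 and 12.2 CPM in WT libraries. Its log2 fold change was -0.39 (SE 0.11, adjusted p = 0.122, edgeR), and it passed without WT replicate 3 (-0.49, adjusted p = 0.0361), the only WT library inside the KO range. Cckbr, the main cholecystokinin receptor of the brain, had 40.5, 39.0, 44.1 and 45.1 CPM in KO libraries, against 28.8, 38.7, 33.2 and 38.4 CPM in WT libraries, without overlap and without passing (0.27, SE 0.08, adjusted p = 0.135).

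Of the opioid receptors, Oprk1 and Oprd1 differed in sign from each other. Oprk1, the kappa receptor on which dynorphin acts, averaged 9.67 ± 1.57 CPM in KO and 11.8 ± 1.12 CPM in WT libraries (log2 fold change -0.29, adjusted p = 0.268, edgeR). Oprd1, the delta receptor on which enkephalins act, averaged 16.0 ± 1.87 CPM in KO and 13.1 ± 2.36 CPM in WT libraries (0.31, adjusted p = 0.273). Neither passed, and the difference between them was not tested. The mu receptor gene Oprm1, outside the rule, averaged 2.08 ± 0.60 CPM in KO and 2.16 ± 0.33 CPM in WT libraries (-0.06, adjusted p = 0.95, edgeR). Sstr3 (0.16, adjusted p = 0.282) and Crhbp, which binds and holds corticotropin-releasing hormone (0.22, adjusted p = 0.293), complete the 7. The most abundant receptors of the remaining peptides were Npy1r at -0.18, Crhr1 at -0.06, Tacr1 at 0.16 and the neurotensin-binding sorting receptor Sort1 at 0.04 on the log2 scale, and none passed.

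**Figure D4:**
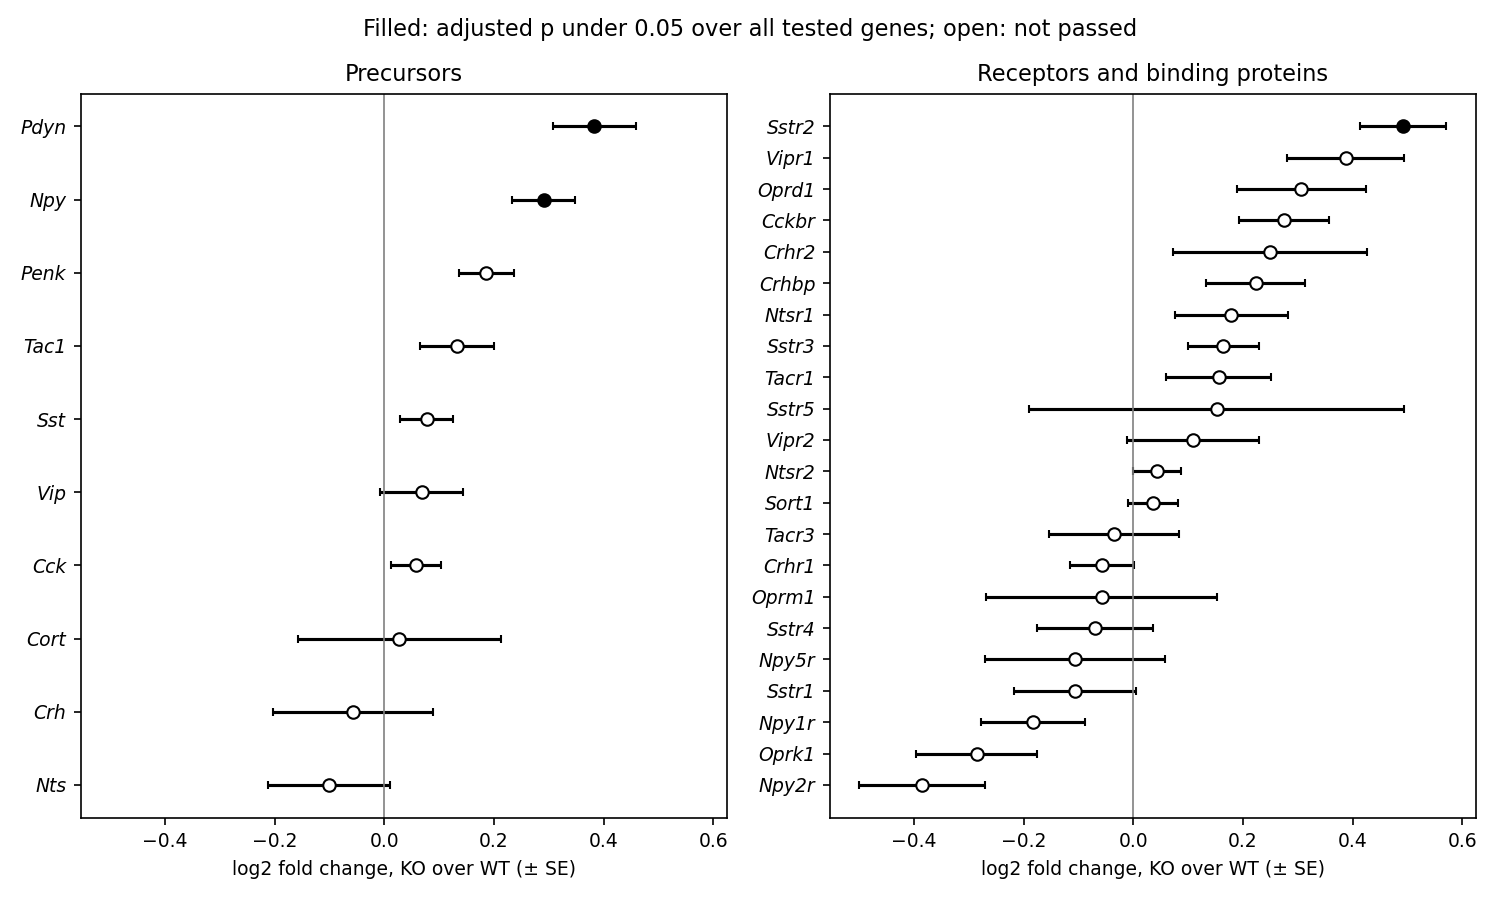
Log2 fold change of KO over WT libraries (± SE) for the 10 precursors (left) and 22 receptor and binding protein genes (right), ordered by size. Filled points passed an adjusted p of 0.05 over all tested genes: Pdyn, Npy and Sstr2.

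Of 24 other peptide and secreted factor precursors tested, 1 rose, 0 fell and 23 did not pass, where 1.14% of all tested genes rose. Their median log2 fold change was 0.10, with 16 positive. The one that rose was Vgf, a precursor whose transcript follows neuronal activity, with 243.9, 231.2, 233.5 and 239.1 CPM in KO libraries, against 164.8, 176.8, 175.6 and 207.5 CPM in WT libraries. It missed the threshold once trends with GC content and length were removed (0.33, adjusted p = 0.0592). Pnoc, the nociceptin precursor and a relative of Penk and Pdyn, was chosen after its values were seen. It had 11.2, 12.3, 11.05 and 10.02 CPM in KO libraries, against 8.83, 9.50, 9.89 and 8.94 CPM in WT libraries, did not overlap and did not pass (0.26, SE 0.09, adjusted p = 0.232, edgeR).

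Of 21 genes of prohormone processing and dense-core vesicles, 2 rose, 0 fell and 19 did not pass, where 1.14% of all tested genes rose. Their median log2 fold change was 0.02. The granins Chga (205.8 ± 9.91 CPM in KO and 181.3 ± 5.08 CPM in WT libraries, SD, n = 4, adjusted p = 0.04, edgeR) and Chgb (532 ± 23.8 CPM in KO and 475 ± 11.1 CPM in WT libraries, adjusted p = 0.0413) rose by 0.18 and 0.16 on the log2 scale. Both missed the threshold without both libraries numbered 1 (adjusted p = 0.182 and 0.19). With GC content and length trends removed, Chga missed it (0.16, adjusted p = 0.0719, edgeR) and Chgb passed (0.15, adjusted p = 0.0347). Of the fits without 1 library, Chga passed only without KO replicate 2 or 3 and Chgb only without KO replicate 2 or 4. Of 15 genes in the list of peptidases, which includes the angiotensin receptor gene Mas1, 0 passed by edgeR or DESeq2 and 1, Mas1, had an unadjusted p under 0.05 in edgeR (0.21, adjusted p = 0.339). Thop1 and Nln, peptidases that cut neurotensin, stood at 0.11 and -0.09.

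Pdyn is a marker of striatal projection neurons as well. The 22 striatal markers tested hold 19 genes that are not peptide precursors, and the rest are precursors described here, Pdyn among them. Of the 22, 4 rose, 0 fell and 18 did not pass, where 1.14% of all tested genes rose. The median log2 fold change of the 22 was 0.10, and 19 of the 22 were positive, against 48.0% of all tested genes. An unadjusted p under 0.05 in edgeR was reached by 9, against 12.6% of all tested genes. These tallies count the precursors themselves, and the list was chosen with earlier results of these data known. Besides Pdyn, those that rose were Ppp1r1b, Drd1a and Adcy5, at 0.23, 0.28 and 0.17 on the log2 scale. DESeq2 gave 6 of the 22 higher, the replicate number as a block 9, and removal of GC content and length trends 3, with 0 lower in each. Leaving out WT replicate 4 gave 7 higher, and leaving out WT replicate 3 gave 0. Without both libraries numbered 1, 0 of the 22 passed, and Ppp1r1b, Drd1a and Adcy5 stood at 0.21, 0.30 and 0.15 (adjusted p = 0.053, 0.0653 and 0.11, edgeR). Leaving out KO replicate 3 or WT replicate 3 ended the call of each of those 3, and leaving out WT replicate 3 ended that of Pdyn. Over the 8 fits without 1 library, Ppp1r1b passed in 5 (also missing without WT replicate 1), Drd1a in 3 (only without KO replicate 2 or WT replicate 1 or 4) and Adcy5 in 2 (only without KO replicate 2 or WT replicate 4). Adcy5 also missed the threshold once trends with GC content and length were removed (0.14, adjusted p = 0.052, edgeR). The 19 striatal markers that are not peptide precursors, none of them at 0, summed to 1873 to 1902 CPM in KO libraries, against 1657 to 1791 CPM in WT libraries, so the groups did not overlap. The sum weighs abundant genes most and holds Ppp1r1b, Drd1a and Adcy5, so it is not separate from their calls. Set against that sum, Pdyn came to 2.09%, 1.91%, 1.73% and 1.86% in KO libraries 1 to 4, against 1.57%, 1.59%, 1.48% and 1.75% in WT libraries 1 to 4, and only KO replicate 3 lay inside the WT range. Penk came to 10.9% to 12.2% of it in KO and 10.6% to 11.5% in WT libraries, and Tac1 to 2.22% to 2.38% in KO and 2.15% to 2.56% in WT libraries, so both overlapped. The part of the striatal markers in these results was not tested.

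Summed, the 28 interneuron markers, none of them at 0, did not separate the groups. Their sum was 3334 to 3610 CPM in KO and 3299 to 3549 CPM in WT libraries, and 14 of 28 log2 fold changes were positive. By edgeR or DESeq2 0 passed, and 5 had an unadjusted p under 0.05 in edgeR, against 12.6% of all tested genes. Relative to that sum, Npy was 1.17% to 1.38% in KO and 1.02% to 1.18% in WT libraries, where KO replicate 1 lay just inside the WT range. Sst was 3.29% to 3.55% in KO and 3.13% to 3.42% in WT libraries, and Vip 0.607% to 0.679% in KO and 0.598% to 0.683% in WT libraries. Slc32a1, the vesicular GABA transporter, Gad1, which makes GABA, and Nos1 had the lowest p of the list, at 0.11, 0.12 and 0.10 on the log2 scale. Of the 28, 2 did not overlap between groups, Slc32a1 and Nos1, both with KO higher, against 7.67% of all tested genes in either direction.

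Of 16 hippocampal markers, Wfs1 (0.47) and Ociad2 (0.22) rose, Dsp fell (-1.16 on the log2 scale) and 13 did not pass. Over all tested genes 1.14% rose and 0.289% fell. Of the 16 log2 fold changes, 5 were positive and 11 negative, with a median of -0.07, against 48.0% positive over all tested genes. At an unadjusted p under 0.05 in edgeR 2 were higher and 4 lower, against 12.6% of all tested genes in either direction. Without both libraries numbered 1, Ociad2 did not pass (adjusted p = 0.0585, edgeR), while Wfs1 and Dsp passed in every fit that left out 1 library. The 16 hippocampal markers summed to 715 to 811 CPM in KO and 693 to 763 CPM in WT libraries. Of 12 hypothalamic markers 0 passed by edgeR or DESeq2 and 0 had an unadjusted p under 0.05, and the 15 in the table summed to 138 to 189 CPM in KO and 149 to 169 CPM in WT libraries. Among 28 activity-regulated genes 6 rose, 0 fell and 22 did not pass, where 1.14% of all tested genes rose. The median log2 fold change of the 28 was 0.03. Those that rose were Vgf, the transcription factor gene Egr3 (1.26), Gadd45b (0.91), the activin subunit gene Inhba (1.48), the synaptic pentraxin gene Nptx2 (1.47) and Rheb (0.18). Without both libraries numbered 1, 7 of the 28 rose and Rheb did not pass (adjusted p = 0.148, edgeR). With 1 library left out, Nptx2 kept its call only without KO replicate 1 or 4 (2 of 8 fits), and its adjusted p reached 0.129 without WT replicate 3 (edgeR). Rheb kept its call only without KO replicate 2, and Ociad2 only without KO replicate 2 or WT replicate 1 or 2.

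**Figure D5:**
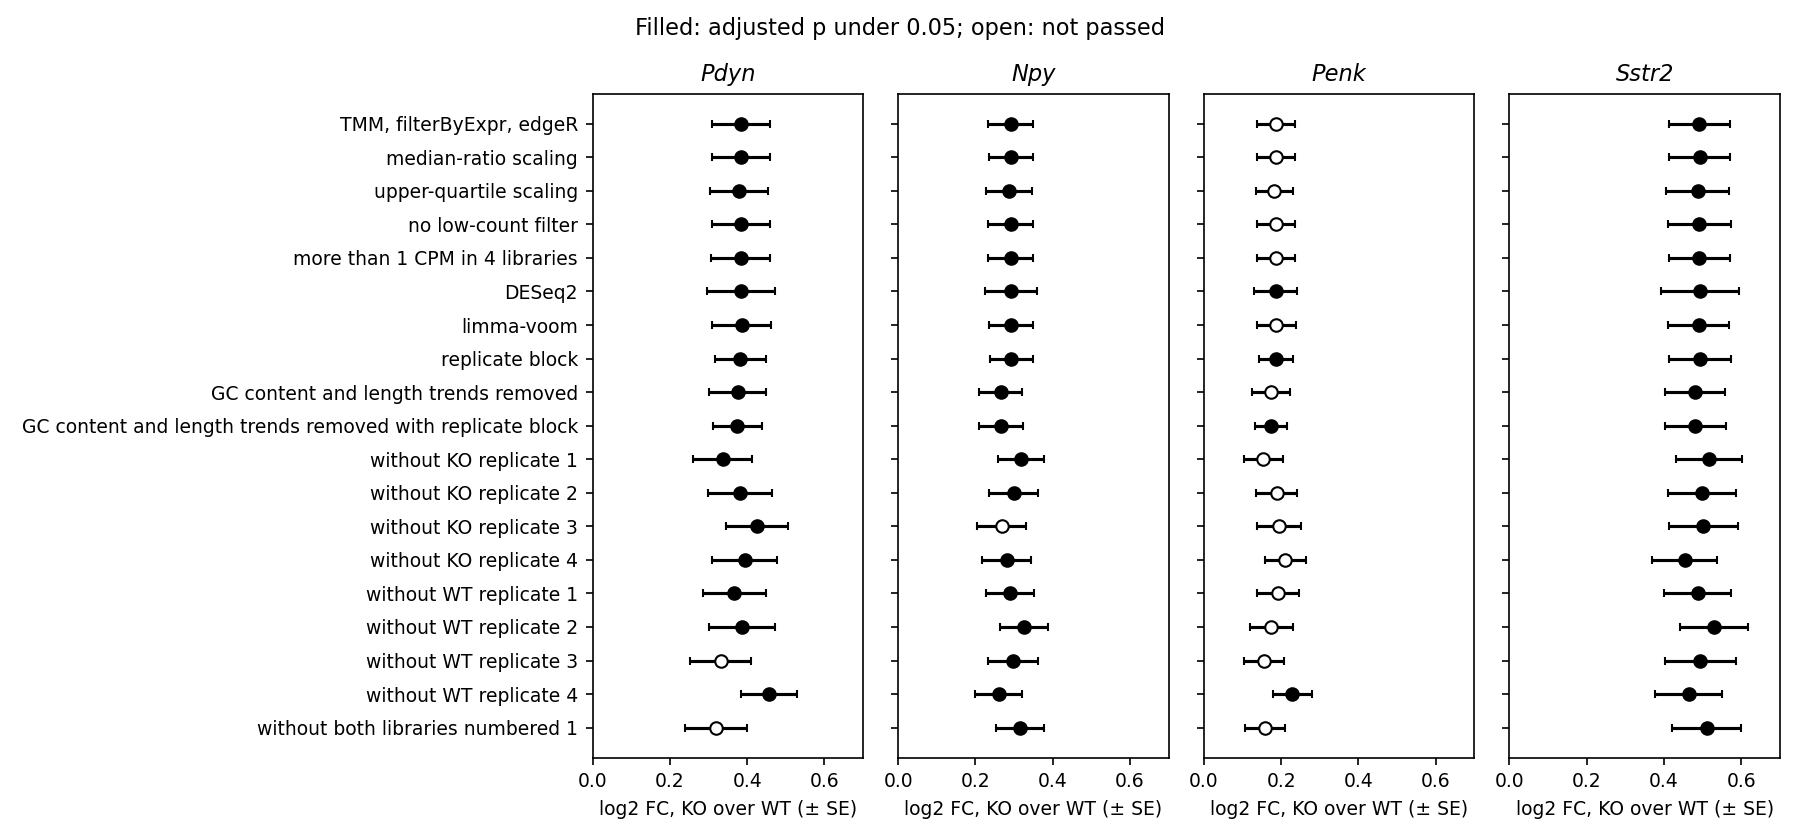
Log2 fold change of KO over WT libraries (± SE) for Pdyn, Npy, Penk and Sstr2 under the reported fit (top) and each alternative. Filled points passed an adjusted p of 0.05. All values stay above 0, Sstr2 is filled throughout, Pdyn is open without WT replicate 3 and without both libraries numbered 1, and Npy is open without KO replicate 3.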

How the data were processed

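The deposited table holds expected counts (estimated reads per gene) for 17613 genes and 8 libraries, not scaled between libraries, and 91.5% of the values were whole within 0.001. TopHat2 2.0.9, edgeR and the GRCm38 (mm10) build are named in the submitters' processing notes with no role. How reads were counted, and whether by strand, is not given in the sources used here. Per the labels' protocols, RNA was taken with Trizol and column purification and made into stranded mRNA libraries.

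Expected counts were rounded and filtered with filterByExpr, which left 15902 genes, and scaled by TMM. KO was set against WT in a model with no other term, with robust quasi-likelihood F tests in edgeR 4.0.16 under R 4.3.3. P-values were adjusted by Benjamini and Hochberg's method across the whole tested set. SEs come from the coefficient and its F statistic, and 95% intervals from the fitted degrees of freedom. A count of 3 equals 0.157 to 0.221 CPM in KO and 0.152 to 0.252 CPM in WT libraries. Positions, lengths and exon overlaps come from GENCODE M21 (GRCm38), where 17286 gene identifiers were found, and promoter sequences from RefSeq (GRCm38.p6). Log2 CPM for principal components used a prior count of 2. The test was checked on simulated data.

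The precursors and all gene lists were chosen with earlier results of these data known. The text names all precursors, Uhrf2, receptors with an unadjusted p under 0.05 and the most abundant receptor of each peptide. From the other lists it names genes past the threshold or with the lowest p. It also names the 3 nearest genes by centred log2 CPM of each precursor that rose. Pnoc and Oprm1 were named outside these rules. The Y-linked list is given as a sum. Lists of pituitary and other-tissue markers are not described further. Of 2 and 4 tested in them, 0 passed, and 1 in each had an unadjusted p under 0.05 in edgeR. The alternatives tried were scaling by median ratios or upper quartiles, 2 other filters, DESeq2 1.42.0, limma-voom (limma 3.58.1), removal of GC content and length trends, the replicate number as a block, and leaving out libraries. Pairs of libraries of 1 group differed by more than counting noise (chi-square per degree of freedom from 2.44 to 5.05), so none was treated as the same library deposited again. This does not show that they came from separate animals.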

Additional observations from a re-analysis of the deposited data

Results flagged for a closer look

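In 4 of 50 sets of 4 libraries (25 genes in 2 groups), 1 library lay far from the other 3 relative to the range, where chance flags about 1 in 20. Vip had 24.2 CPM in WT replicate 1, above 20.1 to 20.4 CPM in the other WT libraries. Cort had 3.88 CPM in KO replicate 1, above 2.54 to 2.67 CPM in the other KO libraries. Uhrf2 had 47.7 CPM in WT replicate 2, below 57.2 to 58.9 CPM in the others. Sstr3 had 22.5 CPM in WT replicate 4, below 25.2 to 25.7 CPM in the others.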

How the results depend on the processing

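Npy, Penk, Tac1, Sst, Cck and Vip stayed higher and Nts lower in KO libraries under all alternatives run, and so did Pdyn and Sstr2 (higher). The direction turned for Cort without KO replicate 1 (-0.12), without WT replicate 1 (-0.08), with GC content and length trends removed and a replicate block (-0.0101) and without both libraries numbered 1 (-0.23), and for Crh without KO replicate 2 (0.054). The range over fits without 1 library was -0.12 to 0.12 for Cort and -0.15 to 0.054 for Crh. Leaving out 1 library gave 1 to 3 precursors higher, 96 to 247 genes higher and 14 to 77 lower among all genes, 1 to 2 receptors and 0 to 3 processing genes past the threshold. Fewer libraries enter these fits. Leaving out both numbered 1, an alternative chosen after seeing the data, gave 1 precursor, 18 genes lower among all, 2 receptors and 0 processing genes. DESeq2 called 2 receptors. With GC content and length trends removed, 0 other precursors and 1 processing gene (Chgb) passed. The causes were not tested.

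The replicate numbers were not treated as pairs: the correlation of deviations of same-numbered libraries was 0.208, 0.0772, 0.0245 and 0.0673 for numbers 1 to 4, and KO replicates 2 and 3 correlated better with a WT library of another number. With the replicate block 347 genes were higher and 148 lower in KO, and 4 receptors passed; Penk passed (adjusted p = 0.0275) and no precursor was lost. With the block and GC content and length trends removed, 364 were higher, 145 lower and 2 receptors passed. Depth limits Cort and Crh most, where counting alone gives a coefficient of variation of 14.8% and 12.2%.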
